A study of Mus musculus with 24 samples.

Results

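The 43 genes described here are imprinted genes of the mouse placenta, taken by gene name from a table of read counts that lists 55401 genes. Poly(A) RNA of the maternal-fetal interface (MFI, the placenta with the adjoining maternal decidua) was sequenced from wild-type (WT) mice and from mice homozygous for a CRISPR/Cas9 deletion of the exons of C1qtnf6 (KO), a gene for a secreted protein of the C1q and TNF related family. All mice were on the C57BL/6 background and untreated, and the genotypes of dam and fetus within a KO sample are not given separately in the sources used here. Tissue was taken at 4 gestational days (gd), from gd10.5 through gd14.5 and gd16.5 to gd19.5, with 3 libraries for each of the 8 combinations of genotype and stage and 24 libraries in all. The KO strain is a single deletion line, and litter, dam and fetal sex are not part of the sample labels, so p-values measure the spread between these libraries, which may be technical in part. Because the MFI holds maternal as well as fetal cells and no allele was read, every value below is the summed RNA of both parental copies in both tissues.

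An imprinted gene is transcribed mainly from the copy inherited from one parent, because that copy and its partner carry different DNA methylation or histone marks set in the germ line. Many imprinted genes act on growth of the placenta and fetus, and several paternally expressed genes promote growth and supply of nutrients while several maternally expressed genes restrain it. They lie in clusters in which genes of opposite parental expression stand side by side under a shared control region. By general knowledge, 17 of the 43 genes are expressed from the paternal copy and 24 from the maternal copy, and 2 were left out of the classes, Gnas because its allele depends on the transcript and Smoc1 because its placental imprint is less certain. Of the 24 maternal genes, 10 are imprinted in many tissues and 14 have an imprint described mainly or only in placenta, in part disputed.

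Several of the genes carry microRNAs, which were not measured here. Where they lie in exons, they affect how reads of the host gene are counted. The paternally expressed Rtl1 on chromosome 12 holds 7 hairpins listed by RefSeq (GRCm38.p6), of which 6 are on the other strand, where they belong to the maternally expressed antisense transcript. Of the 13 mature microRNAs of these hairpins, 11 have their exact reverse complement in the annotated Rtl1 transcript, which is how the maternal antisense products can pair perfectly with the paternal mRNA. The 6 hairpins of the other strand are shown 5′ to 3′, each by 1 arm, with the seed (bases 2 to 8) in capitals.
miR-431-5p: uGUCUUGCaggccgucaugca
miR-432: uCUUGGAGuagaucagugggcag
miR-433-3p: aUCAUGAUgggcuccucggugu
miR-127-3p: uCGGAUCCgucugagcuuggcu
miR-434-3p: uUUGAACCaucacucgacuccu
miR-136-5p: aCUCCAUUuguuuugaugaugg
H19 holds 1 hairpin inside its exon and Mest holds 1 outside its exons, and their mature products are shown in the same way because both hosts are among the genes followed below.
miR-675-5p: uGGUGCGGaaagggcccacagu
miR-675-3p: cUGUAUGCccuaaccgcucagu
miR-335-5p: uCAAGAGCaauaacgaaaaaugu
miR-335-3p: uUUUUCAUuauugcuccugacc
Further along chromosome 12, the maternally expressed noncoding RNAs Rian and Mirg span 3 and 14 hairpins. Among the mature microRNAs within the 43 genes, a pair of Mirg microRNAs, miR-453 and miR-496a-5p, shared a seed.

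Promoter windows of 300 bases, from 250 before to 50 after the start listed by RefSeq, were found for 32 of the 43 genes. Their median number of CG dinucleotides, the letters at which mammalian DNA is methylated, was 16 (1 start a gene), beside 7 over all 32851 windows, with 11 for the 13 paternal and 19 for the 18 maternal genes that had a window. Windows are shown for genes whose RNA moved most or moved with a neighbour, on the strand of the gene and with CG in capitals. The Peg3 window (chr7:6730370-6730669, minus strand, 13 CG) also holds the start of Usp29, which is read the other way from a start 164 bases off, and the windows of the pair share 263 bases.
Peg3: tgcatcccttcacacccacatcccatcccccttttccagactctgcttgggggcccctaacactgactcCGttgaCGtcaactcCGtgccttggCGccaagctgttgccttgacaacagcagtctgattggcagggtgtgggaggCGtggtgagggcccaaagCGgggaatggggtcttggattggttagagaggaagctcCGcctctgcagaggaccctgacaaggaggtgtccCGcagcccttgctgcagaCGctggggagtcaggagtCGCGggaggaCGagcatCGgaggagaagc
Zim1, maternally expressed and the next gene beside Peg3, has a window with 20 CG (chr7:6696383-6696682, minus strand).
Zim1: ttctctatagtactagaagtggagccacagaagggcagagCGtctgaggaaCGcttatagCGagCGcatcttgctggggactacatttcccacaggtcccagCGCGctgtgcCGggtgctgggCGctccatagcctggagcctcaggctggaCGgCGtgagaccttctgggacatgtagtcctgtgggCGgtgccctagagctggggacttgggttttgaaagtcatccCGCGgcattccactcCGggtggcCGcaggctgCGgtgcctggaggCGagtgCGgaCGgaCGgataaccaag
Zdbf2 has a CG-rich window with 38 CG (chr1:63273019-63273318, plus strand).
Zdbf2: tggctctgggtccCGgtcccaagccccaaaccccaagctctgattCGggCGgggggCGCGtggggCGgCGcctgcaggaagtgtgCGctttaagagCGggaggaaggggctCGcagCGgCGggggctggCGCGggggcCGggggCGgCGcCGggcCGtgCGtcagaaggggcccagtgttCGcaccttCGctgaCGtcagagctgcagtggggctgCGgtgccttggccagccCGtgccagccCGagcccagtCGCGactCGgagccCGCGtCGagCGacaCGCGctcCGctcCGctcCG
Phlda2 and Slc22a18 are neighbours in the Kcnq1 cluster of distal chromosome 7, with 26 CG in the window of the first (chr7:143502475-143502774, minus strand) and 2 in that of the second (chr7:143473539-143473838, plus strand).
Phlda2: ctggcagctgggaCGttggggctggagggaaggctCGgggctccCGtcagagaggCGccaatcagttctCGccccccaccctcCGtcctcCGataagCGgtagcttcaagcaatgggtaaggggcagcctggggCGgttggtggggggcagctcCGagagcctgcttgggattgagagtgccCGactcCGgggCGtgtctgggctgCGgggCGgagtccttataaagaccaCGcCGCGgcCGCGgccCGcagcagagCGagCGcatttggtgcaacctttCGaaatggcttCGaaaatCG
Slc22a18: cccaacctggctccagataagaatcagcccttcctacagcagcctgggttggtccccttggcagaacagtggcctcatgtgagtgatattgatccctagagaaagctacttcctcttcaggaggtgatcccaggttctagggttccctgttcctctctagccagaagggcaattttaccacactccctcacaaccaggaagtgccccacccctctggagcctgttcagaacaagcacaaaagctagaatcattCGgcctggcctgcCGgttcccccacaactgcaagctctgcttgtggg
Of all windows, 83.1% held fewer CG than that of Phlda2 and 14.1% held fewer than that of Slc22a18. A search of both strands for GCCATNTT, a core of the site of the factor YY1, found it at 1 start of Gab1 and 1 start of Sfmbt2, and in 6.05% of all windows.

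The libraries held 20975717 to 37383108 counted reads, and the lowest count of any of the 43 genes in a library was 7, for Tspan32. The deleted gene C1qtnf6 had 1 to 45 counts in the KO libraries and 1625 to 5799 in the WT libraries (at most 2.05 CPM against at least 64.7). KO gd10.5 replicate 2 stood apart: its summed markers of spongiotrophoblast and glycogen cells, the trophoblast of the junctional zone, reached 11872 CPM (read counts scaled to a common library size), against 866 to 2099 in the other gd10.5 libraries. Y-linked genes summed to 71.1 CPM in it and to 0.0374 to 0.311 in the other gd10.5 libraries. On gd16.5 they summed to 194, 188 and 1.14 CPM in KO and to 89.2, 0.663 and 0.487 in WT. Markers of yolk sac endoderm (6 genes, such as Afp, Ttr and Apob) summed to 1266 to 22111 CPM in 7 libraries, namely WT gd10.5 replicate 1, the 3 KO gd10.5 libraries, WT gd16.5 replicate 1 and KO gd16.5 replicates 1 and 2, and to 34.3 to 477 CPM in the other 17. Trophoblast giant cell, spongiotrophoblast and decidual stroma markers were all detected at each stage, and 6 of 7 labyrinth trophoblast markers were, all but Synb. Fewer cells of a type and less RNA per cell cannot be told apart in such bulk tissue.

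Per length, the genes spanned a wide range of levels, given as RPKM, here the TMM-scaled CPM divided by the exon length in kilobases. H19, a noncoding RNA and the most abundant of the 43 over the 24 libraries, averaged 2633 RPKM (2229 to 3070). Peg10, a retrotransposon-derived gene needed to form the placenta, followed with 762 RPKM and had the highest level of the paternal genes. Dcn, the matrix proteoglycan decorin, averaged 271 RPKM, and Cdkn1c, the cyclin-dependent kinase inhibitor p57, averaged 199. Peg3, a zinc finger transcription factor, and Mest, a hydrolase of the endoplasmic reticulum, averaged 112 and 52.7 RPKM. The lowest were Kcnq1, a potassium channel, at 0.59 RPKM and Tspan32, a tetraspanin, at 0.13 RPKM. All 43 passed the filter on low counts set over the 24 libraries, and Tspan32 did not pass it within the gd19.5 libraries alone.

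**Figure D1:**
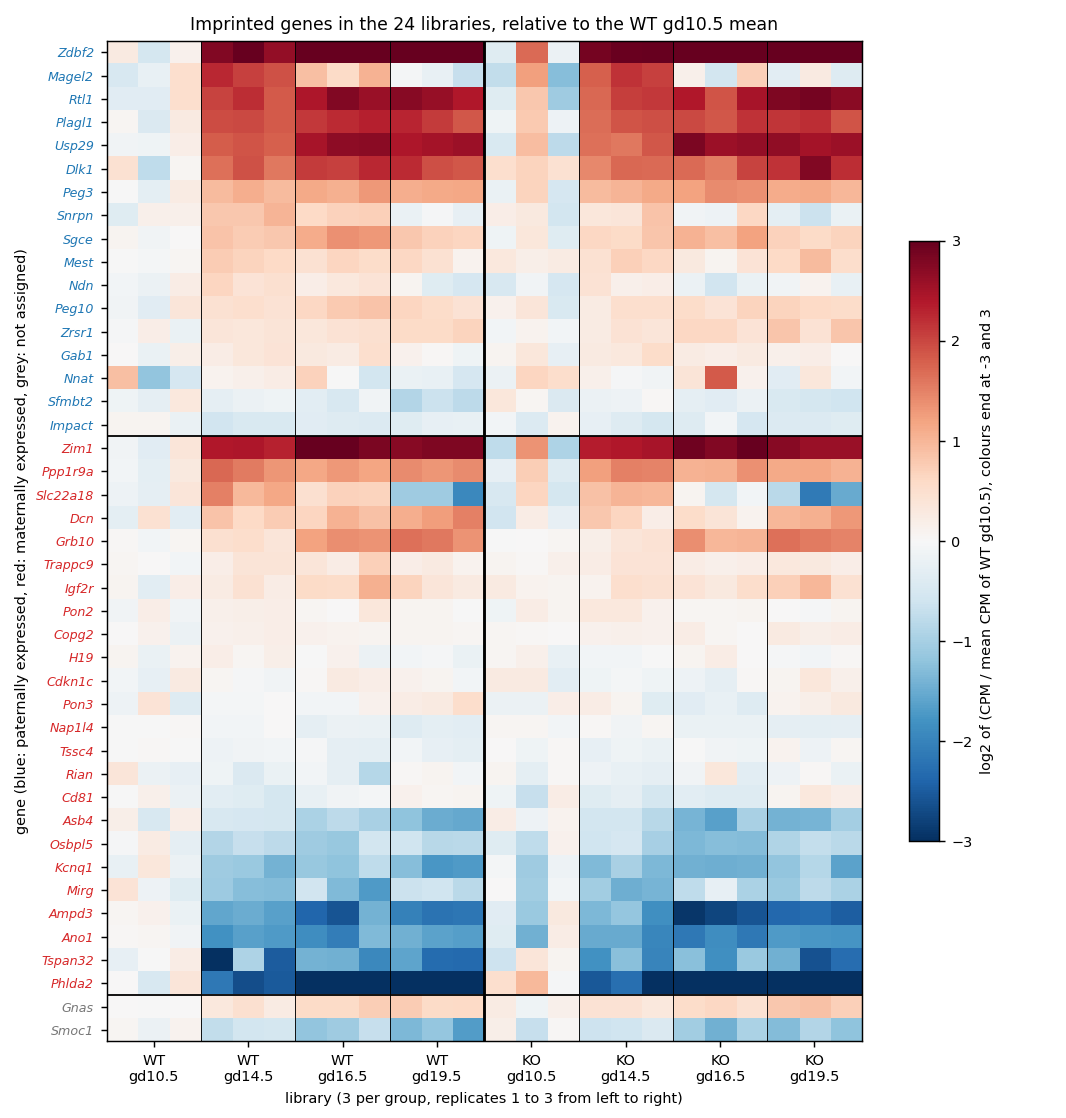
Heat map of the 43 genes (rows, split into paternally expressed, maternally expressed and not assigned) in the 24 libraries (columns), each value the log2 of CPM over the mean CPM of the 3 WT gd10.5 libraries. Zdbf2, Zim1 and Rtl1 are red and Phlda2 blue from gd14.5 on in both genotypes, while KO gd10.5 replicate 2 is redder than its 2 fellow libraries for Zim1, Zdbf2 and Magel2.

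From gd10.5 to gd14.5 in WT, paternally expressed genes moved mostly upward and maternally expressed genes moved both ways. With an adjusted p under 0.05 in edgeR's quasi-likelihood test and a change of over 2-fold, 16 of the 43 genes were called, beside 22.2% of the 18523 genes tested. All 7 called paternal genes (of 17) rose: Zdbf2, Magel2, Rtl1, Plagl1, Usp29, Dlk1 and Peg3. Of the 24 maternal genes, 3 rose (Zim1, Ppp1r9a and Slc22a18) and 6 fell (Phlda2, Tspan32, Ano1, Ampd3, Mirg and Kcnq1). Over all genes tested, 10.7% rose and 11.6% fell by the same rule. Without the fold limit, 14 paternal genes rose and 1, Impact, fell, while 6 maternal genes rose and 9 fell, beside 27.7% and 28.3% of all genes. The median log2 fold change was 0.82 over the paternal genes, -0.04 over the maternal genes and -0.01 over all genes tested. For the 10 maternal genes imprinted in many tissues the median was 0.07, and for the 14 others it was -0.08.

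The same shift showed in each library when the log2 CPM of each class was averaged. The paternal mean minus the maternal mean was -0.34, -0.58 and -0.21 in the 3 WT libraries of gd10.5 and 0.82, 0.84 and 0.84 in those of gd14.5. It was 1.01, 1.09 and 1.04 on gd16.5 and 0.84, 0.85 and 0.81 on gd19.5. The gd10.5 libraries thus lay below all later ones. In KO the same difference was -0.34, 0.21 and -0.61 on gd10.5, with the value above zero in replicate 2, and 0.70, 0.70 and 0.99 on gd14.5.

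**Figure D2:**
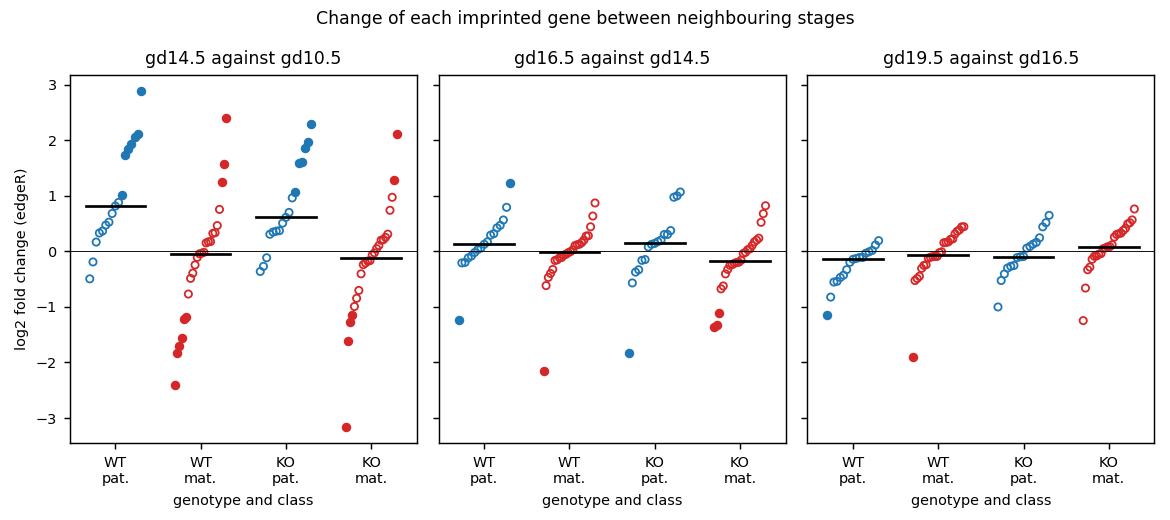
log2 fold change (edgeR) of each paternally (blue, 17) and maternally (red, 24) expressed gene between neighbouring stages, for WT and KO, with filled points for genes past an adjusted p of 0.05 and 2-fold and black bars for the median of the class. The paternal median lies at 0.82 in WT and 0.61 in KO for gd14.5 against gd10.5, and near zero in the later steps.

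Zdbf2, a zinc finger protein gene with paternal expression (GRCm38 chr1:63273265-63314576, plus strand), changed most of the paternal genes. It had 8.02, 4.62 and 7.28 CPM in WT on gd10.5, 45.8, 57.5 and 41.1 on gd14.5, 106, 121 and 110 on gd16.5, and 108, 114 and 117 on gd19.5. No library of one stage overlapped with those of the stage before up to gd16.5. The rise was 7.36-fold by gd14.5 (log2 fold change 2.88 ± 0.17 SE, edgeR adjusted p = 5.5e-08) and a further 2.33-fold by gd16.5 (1.22 ± 0.15, adjusted p = 0.000162).

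Dlk1 (chr12:109452823-109463336, plus strand) and Rtl1 (chr12:109589193-109600330, minus strand), paternally expressed protein genes of the same cluster, rose together. Dio3, at the far end of that cluster and outside the main gene list, fell from gd10.5 to gd14.5. Its log2 fold change was -3.36 in WT and -3.58 in KO (edgeR adjusted p = 1.92e-06 and 0.000738). Rtl1, a retrotransposon-derived gene needed for the fetal capillaries of the labyrinth, had 8.02, 8.13 and 14.51 CPM in WT on gd10.5 and 41.8, 47.8 and 36.4 on gd14.5. All gd14.5 libraries were higher, by 4.18-fold (log2 2.06 ± 0.20, edgeR adjusted p = 2.26e-06). Dlk1, whose product is a membrane and soluble protein with EGF-like repeats, had 51.3, 22.1 and 39.3 CPM and then 119, 140 and 112. This too was a rise without overlap, by 3.32-fold (1.73 ± 0.23, adjusted p = 3.35e-05). At gd16.5 WT libraries held 55.1, 69.8 and 61.1 CPM of Rtl1 and 160, 155 and 181 of Dlk1, and on gd19.5 they held 68.0, 62.1 and 54.2 of the first and 179, 142 and 137 of the second, so that the last pair of stages overlapped for both. Of the exon bases of Rtl1, 8.40% lie under the microRNA genes, and reads in such stretches are counted for neither gene under the default settings used. Strand was not used, so reads of the maternal antisense transcript elsewhere in these exons would be counted for Rtl1.

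Plagl1, a zinc finger factor known to regulate other imprinted genes, had 95.7, 68.3 and 111 CPM in WT on gd10.5 and 355, 362 and 325 on gd14.5, a rise of 3.81-fold with no overlap (log2 1.93 ± 0.16, edgeR adjusted p = 5.37e-07). It then stood at 400, 434 and 461 CPM on gd16.5 and 444, 391 and 335 on gd19.5. Magel2, a MAGE family gene of the central chromosome 7 cluster (chr7:62377010-62381640, plus strand), peaked on gd14.5. Its libraries had 6.09, 7.37 and 12.2 CPM on gd10.5, 41.2, 35.6 and 32.1 on gd14.5, 15.9, 12.7 and 17.6 on gd16.5, and 8.25, 7.28 and 5.30 on gd19.5. Each step was without overlap: a rise of 4.30-fold (2.10 ± 0.23, adjusted p = 6.86e-06), a fall of 2.35-fold (-1.24 ± 0.22, adjusted p = 0.00183) and a fall of 2.21-fold (-1.14 ± 0.23, adjusted p = 0.012). The last call was lost without WT gd19.5 replicate 3, where the log2 fold change was -0.99. Its neighbours Ndn (necdin) and Snrpn (a splicing protein) rose by less on gd14.5, with log2 fold changes of 0.52 ± 0.14 and 0.88 ± 0.13 (adjusted p = 0.00701 and 8.07e-05), and fell from gd16.5 to gd19.5, by -0.54 ± 0.15 and -0.82 ± 0.13 (adjusted p = 0.0408 and 0.0034). Other genes share 34.1% of the exon bases of Snrpn.

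In the Peg3 cluster of proximal chromosome 7, genes of opposite parental expression rose together. Peg3 had 801, 650 and 952 CPM in WT on gd10.5, 1559, 1710 and 1557 on gd14.5, 1757, 1684 and 1970 on gd16.5, and 1709, 1762 and 1794 on gd19.5. The gd10.5 libraries were all lower, and the rise to gd14.5 was 2.02-fold (log2 1.01 ± 0.12, edgeR adjusted p = 1.87e-05), so close to the fold limit that leaving out WT gd10.5 replicate 2 (0.87) or WT gd14.5 replicate 2 (0.97) put it below. Usp29, a ubiquitin protease gene read from the shared promoter, had 11.9, 11.8 and 14.8 CPM and then 45.1, 47.4 and 44.7, a rise of 3.59-fold (1.84 ± 0.10, adjusted p = 1.45e-08). Zim1, the maternally expressed zinc finger gene beside Peg3 (chr7:6671269-6696450, minus strand), had 42.3, 35.8 and 58.9 CPM on gd10.5, 241, 247 and 228 on gd14.5, 364, 421 and 323 on gd16.5, and 302, 316 and 317 on gd19.5. It rose by 5.26-fold by gd14.5 (2.40 ± 0.16, adjusted p = 9.96e-08) and by 1.55-fold more by gd16.5 (0.63 ± 0.15, adjusted p = 0.00834), both times without overlap. Per length, Zim1 at 29.3 RPKM lay between Peg3 at 112 and Usp29 at 2.94 over the 24 libraries. The relation of these steps to the junctional zone markers, whose sum was 1499 to 2099 CPM in WT on gd10.5 and 29849 to 32093 on gd14.5, was not tested.

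Ppp1r9a, the maternally expressed gene for the actin-binding protein neurabin, rose as well, from 16.9, 14.5004 and 22.0 CPM in WT on gd10.5 to 58.9, 52.7 and 44.6 on gd14.5. The groups did not overlap, and the rise was 2.96-fold (log2 1.56 ± 0.13, edgeR adjusted p = 9.8e-07). Its neighbours on chromosome 6 did not all move the same way. Sgce (a sarcoglycan, paternal) rose by 0.82 ± 0.08 (adjusted p = 3.21e-06), and Peg10 rose too, as given below. Asb4 (maternal) fell by 0.49 on the log2 scale (adjusted p = 0.023), and Pon2 and Pon3, genes of paraoxonases, did not pass. Of the 6 genes in this cluster, 3 rose and 1 fell without the fold limit, beside the 27.7% and 28.3% of all genes given above.

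Phlda2, a maternally expressed gene for a pleckstrin homology protein known as a brake on placental growth (chr7:143501545-143503150, minus strand), had the steepest fall of the 43 in WT. WT libraries had 45.0, 31.8 and 57.0 CPM on gd10.5, 10.1, 7.05 and 7.79 on gd14.5, 2.85, 1.02 and 1.65 on gd16.5, and 1.87, 2.95 and 2.04 on gd19.5. The first 3 stages did not overlap, and the last pair did. The falls were 5.31-fold (log2 -2.41 ± 0.27, edgeR adjusted p = 9.87e-06) and then 4.48-fold (-2.16 ± 0.32, adjusted p = 0.000475). Slc22a18, a gene for an organic cation transporter whose end lies next to Phlda2, took another course: 15.1, 14.0 and 21.8 CPM on gd10.5, 48.5, 33.2 and 38.1 on gd14.5, 23.6, 27.4 and 27.0 on gd16.5, and 8.13, 8.07 and 4.46 on gd19.5. It rose by 2.38-fold (1.25 ± 0.21, adjusted p = 0.000264) to gd14.5 and fell by 3.75-fold (-1.91 ± 0.23, adjusted p = 0.000652) from gd16.5 to gd19.5, each without overlap, and its step between (-0.62 ± 0.21, adjusted p = 0.0509) did not pass. At gd10.5 the KO libraries held 63.2, 87.9 and 43.3 CPM of Phlda2, which overlapped with WT.

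Among the other maternal genes that fell on gd14.5 were a channel, an enzyme and a tetraspanin. Ano1, a calcium-activated chloride channel, had 184, 188 and 167 CPM in WT on gd10.5 and 51.1, 58.5 and 55.6 on gd14.5 (log2 -1.70 ± 0.15, edgeR adjusted p = 1.09e-06). Ampd3, an AMP deaminase, had 506, 529 and 421 CPM and then 165, 172 and 156 (-1.56 ± 0.23, adjusted p = 8.29e-05). Tspan32 was low throughout, with 1.41, 1.65 and 1.95 CPM and then 0.184, 0.884 and 0.295 (-1.83 ± 0.41, adjusted p = 0.00226). In all 3 genes each gd14.5 library lay below each gd10.5 library. Decidual stroma markers summed to 5864 to 13276 CPM in WT on gd10.5 and to 2622 to 2922 on gd14.5, and natural killer cell markers to 684 to 1036 and 98.0 to 158, and their part in these falls was not tested. Kcnq1 fell by 2.26-fold (-1.18 ± 0.20, adjusted p = 0.000269), and by -0.98 without WT gd10.5 replicate 2, which put it under the fold limit.

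Mirg and Rian, maternal noncoding RNAs of chromosome 12, did not rise with Dlk1 and Rtl1 of their cluster. Mirg had 24.5, 16.7 and 14.47 CPM in WT on gd10.5 and 8.66, 7.68 and 7.49 on gd14.5, a fall of 2.32-fold without overlap (log2 -1.22 ± 0.24, edgeR adjusted p = 0.000929). The highest of these values was in WT gd10.5 replicate 1, a library with yolk sac markers, and without it the fall was -0.97 and under the fold limit. Rian had 253, 174 and 165 CPM and then 180, 145 and 172, which overlapped, and was not called in any step. Meg3, which lies between Dlk1 and Rtl1 and is outside the main gene list, went the other way from gd10.5 to gd14.5. Its log2 fold change was 0.58 in WT (edgeR adjusted p = 0.0508) and 0.74 in KO (adjusted p = 0.00686), under the fold limit in both. Across the 7 libraries with yolk sac markers Mirg ranged from 8.99 to 24.5 CPM and Nnat (neuronatin, paternal) from 6.91 to 28.0, against 5.69 to 16.7 and 3.43 to 9.86 in the other 17. Rian ranged from 160 to 253 CPM in the first and 109 to 209 in the second. The part of yolk sac tissue in these levels was not tested.

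**Figure D3:**
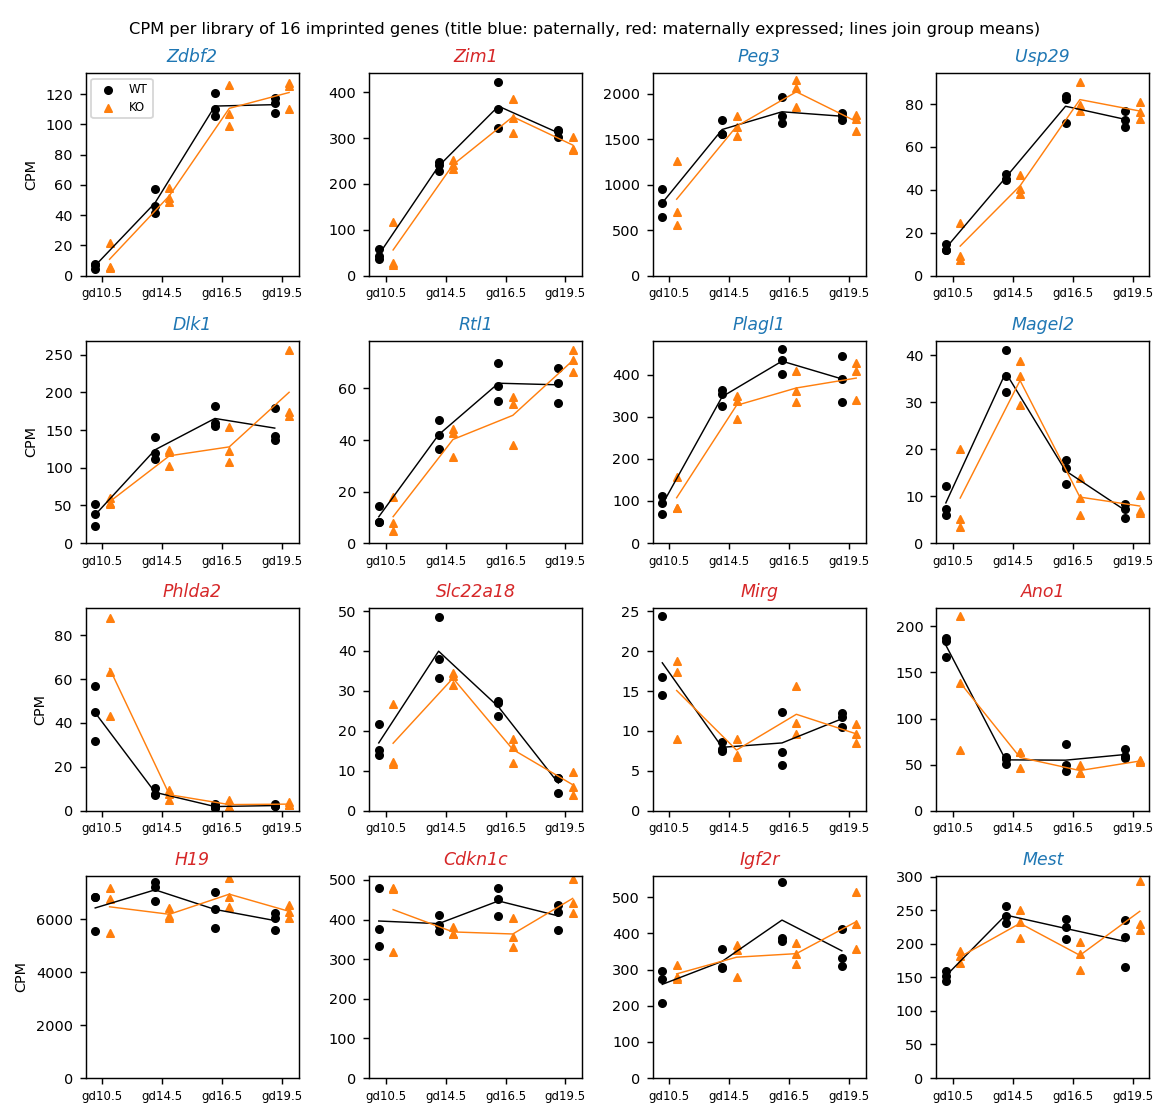
CPM per library (points, WT black circles and KO orange triangles) of 16 imprinted genes against gestational day, with lines joining the means of 3 libraries. Zdbf2 and Zim1 climb from under 60 CPM in WT to over 100 CPM, Phlda2 drops from 31.8 to 57.0 CPM in WT to under 3, Magel2 and Slc22a18 peak on gd14.5, and H19 and Cdkn1c stay level.

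No step of H19, Cdkn1c or Igf2r passed the test in WT. H19 had 6861, 5576 and 6867 CPM in WT on gd10.5, 7417, 6703 and 7238 on gd14.5, 6405, 7050 and 5683 on gd16.5, and 6049, 6243 and 5582 on gd19.5, with overlap between all neighbouring stages. Cdkn1c, which halts the cell cycle and is used by trophoblast giant cells, had 377, 333 and 480 CPM, then 412, 386 and 371, then 409, 479 and 453, and last 436, 418 and 374, and it was not called either. Another transcript shares 30.7% of the exon bases of Cdkn1c. Igf2r, a receptor that clears a growth factor and carries lysosomal enzymes, had 274, 208 and 295 CPM on gd10.5 and 306, 358 and 304 on gd14.5, 388, 379 and 543 on gd16.5, and 411, 333 and 311 on gd19.5, and none of its steps passed.

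Grb10, an adaptor that dampens insulin signalling, kept rising after gd14.5. It had 213, 196 and 216 CPM in WT on gd10.5, 290, 302 and 267 on gd14.5, 484, 548 and 533 on gd16.5, and 660, 624 and 526 on gd19.5. It rose without overlap at the first steps, by 1.38-fold (log2 0.46 ± 0.10, edgeR adjusted p = 0.00115) and 1.83-fold (0.87 ± 0.10, adjusted p = 6.76e-05), and the last stages overlapped. Rtl1 also passed from gd14.5 to gd16.5, with a log2 fold change of 0.56 ± 0.18 (adjusted p = 0.042). Peg10 had 3441, 2935 and 4806 CPM on gd10.5 and 5111, 5286 and 5042 on gd14.5, a rise of 1.39-fold (0.47 ± 0.15, adjusted p = 0.018), then 5729, 6405 and 6697 on gd16.5 and 5827, 5478 and 5054 on gd19.5. Mest had 152, 145 and 159 CPM and then 256, 241 and 230, a rise of 1.602-fold without overlap (0.68 ± 0.11, adjusted p = 0.000189), then 207, 236 and 225, and 235, 210 and 165. Of the exon bases of Mest 912 are shared with Copg2 on the other strand, a gene that did not pass in any step.

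The remaining paternal genes moved by less than 2-fold between neighbouring stages in WT. Sgce, which shares a control region with Peg10, had 65.4, 57.3 and 62.1 CPM in WT on gd10.5, 112, 104 and 108 by gd14.5, 134, 160 and 152 by gd16.5, and 108, 98.9 and 96.5 at the end, and passed the test in all 3 steps, upward in the first and second and downward in the last. Impact, a regulator of translation, was the paternal gene that fell, from 108, 109 and 89.4 CPM to 68.2, 74.7 and 73.9 (log2 -0.50 ± 0.08, edgeR adjusted p = 0.000208). Zrsr1, a splicing factor gene, and Gab1, a docking protein of receptor signalling, rose by 0.36 ± 0.09 (adjusted p = 0.00457) and 0.33 ± 0.10 (adjusted p = 0.016). These 2 changes were without overlap but under 1.3-fold. Sfmbt2, a Polycomb gene whose imprint is found in trophoblast, had 342, 311 and 468 CPM on gd10.5 and 203, 239 and 218 on gd19.5, and none of its steps passed.

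Among the maternal genes with an imprint described mainly in placenta, Nap1l4 (a histone chaperone), Tssc4, Copg2 (a coat protein of vesicles) and Pon2 changed little. Over the 24 libraries they ranged from 101 to 138, 10.1 to 13.2, 35.1 to 47.6 and 56.5 to 78.5 CPM, and none passed in any WT or KO step. Dcn rose from 815, 1362 and 794 CPM in WT on gd10.5 to 1806, 1497 and 1683 on gd14.5 (log2 0.75 ± 0.20, edgeR adjusted p = 0.00531), without overlap. Osbpl5, a lipid transfer protein gene, fell from 108, 131 and 91.0 CPM to 60.3, 68.7 and 64.2 (-0.77 ± 0.15, adjusted p = 0.000901), also without overlap. Cd81, a tetraspanin gene, fell from 66.6, 74.8 and 59.1 CPM to 53.8, 51.6 and 46.7 (-0.39 ± 0.09, adjusted p = 0.00212) and then rose to 56.9, 62.2 and 64.4 (0.27 ± 0.09, adjusted p = 0.0424). Trappc9, a vesicle tethering gene, rose by 0.33 ± 0.12 (adjusted p = 0.0258). Asb4, part of a ubiquitin ligase, fell in KO as well, by 0.70 and then 0.68 on the log2 scale (adjusted p = 0.0087 and 0.0303). Of the genes without a class, Gnas, the stimulatory G protein subunit, rose by 0.36 ± 0.08 (adjusted p = 0.00204) and Smoc1, a matrix protein gene, fell by 0.59 on the log2 scale (adjusted p = 0.00305) between the first stages.

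After gd14.5 few of the genes moved by more than 2-fold. From gd14.5 to gd16.5 in WT, 3 of 43 were called (Zdbf2, Phlda2 and Magel2), beside 5.6% of all genes, and from gd16.5 to gd19.5 the number was 2 (Slc22a18 and Magel2), beside 2.14%. The paternal and maternal medians were 0.13 and -0.01 in the first of these steps and -0.14 and -0.06 in the second. Without the fold limit, 10 and 5 genes passed, beside 22.4% and 7.97% of all genes, and all 5 of the last step fell: Slc22a18, Magel2, Snrpn, Sgce and Ndn.

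The KO libraries, which share none with WT, were compared for gd14.5 against gd10.5 in the same way. Of the 43 genes 12 were called, beside 18.7% of the 18467 genes tested, and all 12 were among the 16 called in WT. The 6 called paternal genes rose, and of the 6 called maternal genes 2 rose and 4 fell. Beside them 8.53% of all genes rose and 10.2% fell. The paternal median was 0.61 and the maternal median -0.12, and 40 of the 43 log2 fold changes had the sign they had in WT. All 3 KO gd10.5 libraries summed to more CPM of yolk sac endoderm markers (1266 to 3704) than the KO gd14.5 libraries (109 to 122). With these markers as a covariate, an alternative chosen after seeing the data, 5 genes were called, and the paternal minus maternal median was 0.47 in place of 0.73. Peg3, Slc22a18, Mirg and Kcnq1, called in WT, had log2 fold changes of 0.96 ± 0.25, 0.97 ± 0.34, -0.99 ± 0.26 and -0.85 ± 0.27 in KO, and each passed an adjusted p of 0.05 in edgeR (0.00856, 0.035, 0.0103 and 0.0238) without reaching 2-fold.

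For Zim1, Zdbf2 and Magel2 the spread on gd10.5 was wider in KO than in WT, with replicate 2 apart. Zim1 had 27.0, 117 and 24.1 CPM in the 3 KO libraries of gd10.5 and 233, 241 and 252 on gd14.5, and its log2 fold change was 2.11 ± 0.48 (edgeR adjusted p = 0.0045) with and 3.24 without that library. Zdbf2 had 5.19, 21.4 and 5.85 CPM and then 48.9, 51.6 and 58.1 (2.29 ± 0.42, adjusted p = 0.00144, and 3.26 without it). Magel2 had 5.16, 20.1 and 3.53 CPM and then 29.5, 38.8 and 35.6 (1.85 ± 0.54, adjusted p = 0.0152, and 3.00 without it). Replicate 2 was the highest of the 3 in each of these genes, and the groups still did not overlap. Without it 16 genes were called. Over 20 alternative settings in edgeR or DESeq2, the highest adjusted p was 0.109 for Zim1, 0.0456 for Zdbf2 and 0.358 for Magel2, so the first and last lost their call at least once.

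For Rtl1 the KO libraries had 7.99, 17.9 and 4.88 CPM on gd10.5 and 33.5, 42.8 and 44.3 on gd14.5 (log2 1.97 ± 0.36, edgeR adjusted p = 0.00144). Dlk1 had 53.3, 59.3 and 51.8 CPM and then 103, 123 and 121 (1.07 ± 0.17, adjusted p = 0.000728), and Plagl1 had 83.4, 157 and 82.5 and then 294, 337 and 350 (1.598 ± 0.22, adjusted p = 0.000359). Phlda2 fell from 63.2, 87.9 and 43.3 CPM to 7.65, 9.25 and 4.82 (-3.16 ± 0.40, adjusted p = 0.000213). None of these 4 genes had a gd14.5 library within the range of gd10.5. Over the alternative settings the highest adjusted p of Rtl1 was 0.0556 (edgeR or DESeq2), and the lowest log2 fold change of Dlk1 was 0.77. Ano1 fell from 139, 66.3 and 211 CPM to 63.5, 63.5 and 46.3 (-1.27 ± 0.31, adjusted p = 0.00663), Ampd3 from 380, 224 and 592 to 191, 217 and 135 (-1.14 ± 0.28, adjusted p = 0.00713) and Tspan32 from 1.08, 2.13 and 1.77 to 0.472, 0.696 and 0.421 (-1.62 ± 0.35, adjusted p = 0.00335). Without KO gd10.5 replicate 3 the first was -0.83 and the second -0.74, and both lost their call, as did the second without KO gd14.5 replicate 3 (-0.98).

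Among the growth regulators in KO, H19 changed little and Peg3 and Grb10 rose. The mean of Peg10 went from 3863 CPM on gd10.5 to 5011 on gd14.5 in KO, beside 3727 and 5146 in WT. H19 had 6754, 7198 and 5482 CPM in KO on gd10.5, 6044, 6122 and 6418 by gd14.5, 6846, 7552 and 6467 by gd16.5, and 6299, 6065 and 6553 by gd19.5, and was not called. Peg3 had 700, 1264 and 561 CPM, then 1540, 1636 and 1752, then 1855, 2149 and 2067, and last 1725, 1771 and 1595, with replicate 2 the highest of gd10.5 and no overlap of that stage with the next. Peg10 had 4101, 4771 and 2716 CPM, then 4456, 5283 and 5293, which overlapped, then 5429, 4976 and 5964, and 5931, 5662 and 5454.

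Grb10 had 206, 209 and 216 CPM in KO on gd10.5, 236, 268 and 279 by gd14.5, 548, 414 and 420 by gd16.5, and 650, 610 and 582 by gd19.5. As in WT, its rise from gd14.5 to gd16.5 passed the test (log2 0.82 ± 0.12, edgeR adjusted p = 0.00155), while the step before (0.31 ± 0.12, adjusted p = 0.0508) did not, and each stage lay above the one before it. Cdkn1c had 479, 478 and 319 CPM, then 363, 381 and 363, then 355, 331 and 405, and last 417, 502 and 442. Igf2r had 312, 280 and 273 CPM, then 280, 367 and 355, then 343, 316 and 373, and last 425, 515 and 358. The stages of these 2 genes did not differ by the test in any step. In the later KO libraries Rtl1 had 53.8, 38.1 and 56.8 CPM by gd16.5 and 71.0, 75.0 and 66.4 by gd19.5, Dlk1 122, 108 and 153 and then 169, 257 and 174, and Plagl1 361, 335 and 409 and then 408, 428 and 340. Mest, after 208, 251 and 233 CPM on gd14.5 in KO, had 185, 160 and 203 and last 230, 294 and 221.

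In the later KO steps, 4 of 43 genes fell from gd14.5 to gd16.5 and none rose, beside 7.53% of all genes called and 2.76% called lower, and none was called from gd16.5 to gd19.5, beside 0.693%. In that last step 12 of the genes had an unadjusted p under 0.05 in edgeR, beside 18.3% of all genes, and DESeq2 called 1, Slc22a18 (-1.23), beside 1.26%. The 4 that fell were Phlda2 (1.74, 4.81 and 1.64 CPM on gd16.5, log2 -1.36 ± 0.41, edgeR adjusted p = 0.0441), Slc22a18 (from 31.4, 34.5 and 33.7 to 18.03, 11.9 and 16.1 CPM, -1.12 ± 0.34, adjusted p = 0.0441), Magel2 (to 9.56, 5.89 and 14.0 CPM, -1.83 ± 0.54, adjusted p = 0.0383) and Ampd3 (to 63.9, 72.3 and 80.0 CPM, -1.33 ± 0.29, adjusted p = 0.0104). The groups of the 4 genes did not overlap between the stages. Leaving out single libraries moved the number between 1 and 5: it was 1 without KO gd14.5 replicate 1 or 2, KO gd16.5 replicate 1 or KO gd19.5 replicate 3, and 2 without KO gd14.5 replicate 3, KO gd16.5 replicate 2 or KO gd19.5 replicate 1 or 2.

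The question of the study was what loss of C1qtnf6 does to this tissue, and none of the 43 genes differed between KO and WT at any stage by the rule used. The share of all genes called was 0.00572% on gd10.5, 0.0166% on gd14.5, 0.00586% on gd16.5 and 0.023% on gd19.5. On gd16.5 this was 1 of the 17071 genes tested, while the paper, with DESeq2 and the same limits, reported more. The rule thus called almost no gene of any kind at that stage. None of the 43 passed an adjusted p of 0.05 in edgeR with the fold limit dropped either (beside 0.115% of all genes on gd19.5 and the same shares at the other stages), and DESeq2 with the fold limit called none. Without an expression filter, Snrpn had an edgeR adjusted p of 0.0321 on gd14.5 (log2 -0.35). On gd16.5 that setting passed 2 of the 43, the lowest being Slc22a18 (-0.78, edgeR adjusted p = 0.0115). With the filter in place, an unadjusted p under 0.05 was found for 1, 3, 11 and 8 of the genes at the 4 stages, beside 0.801%, 6.78%, 11.1% and 13.5% of all genes. The paternal and maternal medians were 0.07 and 0.01 on gd10.5, -0.08 and -0.01 on gd14.5, -0.19 and -0.19 on gd16.5, and 0.08 and -0.0011 on gd19.5. A test of whether the difference between genotypes changed with stage was passed by none of the 43, beside 0.0% of the 19299 genes tested, and 3 of them had an unadjusted p under 0.05, beside 7.23%.

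**Figure D4:**
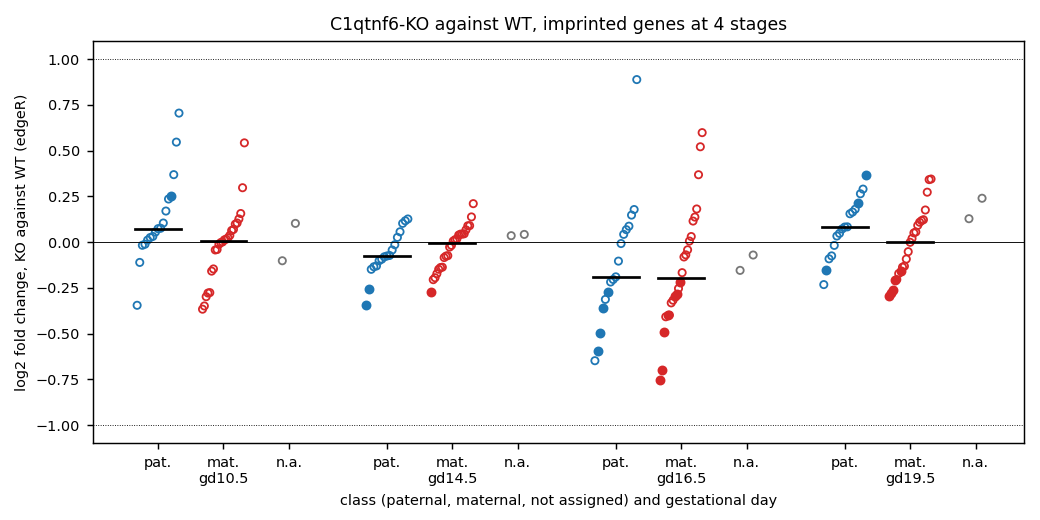
log2 fold change of KO against WT (edgeR) of the paternally expressed (blue), maternally expressed (red) and not assigned (grey) genes at the 4 stages, with filled points for an unadjusted p under 0.05, black bars for class medians and dotted lines at 2-fold. No point crosses the dotted lines, and the filled points on gd16.5, 11 in all, lie below zero.

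At gd16.5 the genes with an unadjusted p under 0.05 were all lower in KO, and the median over the 43 was -0.17, beside 0.01 over all genes. In 12 of the 43 every KO library was below every WT library and in none above, beside 17.6% of all genes without overlap (8.85% higher and 8.76% lower). Slc22a18 had 23.6, 27.4 and 27.0 CPM in WT and 18.03, 11.9 and 16.1 in KO, without overlap (log2 -0.76 ± 0.16, edgeR adjusted p = 0.354). Ndn had 18.97, 20.6 and 22.0 CPM in WT and 14.8, 11.2 and 14.4 in KO (-0.60 ± 0.13, adjusted p = 0.356). The Cdkn1c libraries held 409, 479 and 453 CPM in WT and 355, 331 and 405 in KO (-0.29 ± 0.10, adjusted p = 0.431), again without overlap. Dcn had 1551, 2039 and 1809 CPM in WT and 1449, 1301 and 1062 in KO (-0.49 ± 0.15, adjusted p = 0.421). At this stage the KO libraries summed to 47789 to 52057 CPM of spongiotrophoblast and glycogen cell markers against 28118 to 39652 in WT, to 599 to 881 CPM of labyrinth markers against 881 to 1050, and to 37931 to 44311 CPM of trophoblast giant cell markers against 26033 to 36541. Mesenchyme markers summed to 1768 to 2024 CPM in KO against 2114 to 2461 in WT. Uterine smooth muscle markers summed to 483 to 589 against 616 to 845, and NK cell markers to 12.6 to 19.6 against 34.8 to 56.2. The part of these lists in the values was not tested. DESeq2 gave 2 of the genes an adjusted p under 0.05, beside 0.513% of all genes: 0.00329 for Slc22a18 (log2 -0.78) and 0.016 for Ndn (-0.62), both under 2-fold.

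At the other stages 2 (gd10.5), 2 (gd14.5) and 9 (gd19.5) of the genes had no overlap, beside 4.23%, 12.6% and 20.4% of all genes. At gd10.5 the lowest unadjusted p belonged to Mest, with 152, 145 and 159 CPM in WT and 189, 171 and 181 in KO, all KO libraries higher (log2 0.25 ± 0.09, edgeR adjusted p = 1.00). At gd16.5 Mest had 207, 236 and 225 CPM in WT and 185, 160 and 203 in KO, all lower (-0.27 ± 0.10, adjusted p = 0.433). At gd19.5 Ppp1r9a had 47.6, 44.3 and 47.4 CPM in WT and 39.4, 39.5 and 36.8 in KO, all lower (-0.30 ± 0.07, adjusted p = 0.145), which was the smallest adjusted p of the 43 in the 4 comparisons. Ampd3, with 119, 104 and 107 CPM in WT and 95.2, 97.8 and 87.9 in KO, was next at this stage (-0.26 ± 0.07, adjusted p = 0.192). The remaining growth regulators gave no call: H19 had 6049, 6243 and 5582 CPM in WT and 6299, 6065 and 6553 in KO on gd19.5, Igf2r 411, 333 and 311 against 425, 515 and 358, and Grb10 660, 624 and 526 against 650, 610 and 582. On gd14.5 H19 had 7417, 6703 and 7238 CPM in WT and 6044, 6122 and 6418 in KO, all lower (DESeq2 log2 -0.20, adjusted p = 0.454).

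**Figure D5:**
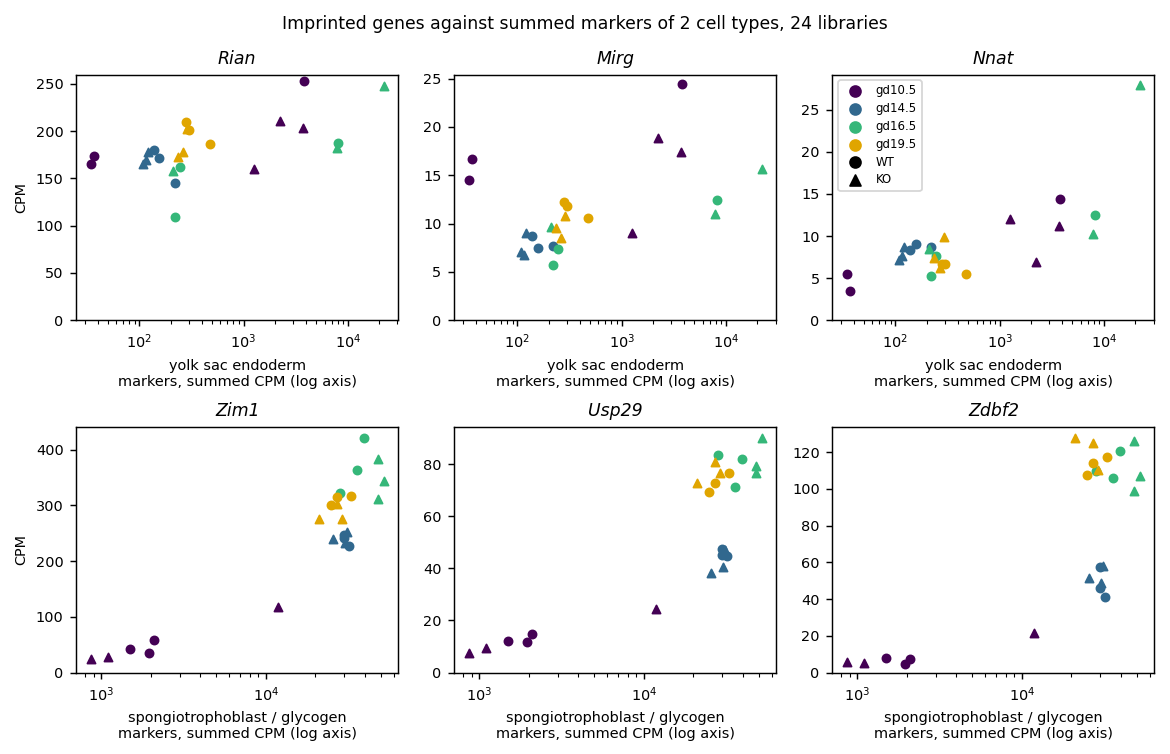
CPM of 3 imprinted genes against the summed CPM of yolk sac endoderm markers (top, log axis) and of 3 others against spongiotrophoblast and glycogen cell markers (bottom, log axis) in the 24 libraries, coloured by stage, with circles for WT and triangles for KO. KO gd10.5 replicate 2, at 11872 CPM of the second list, holds 117 CPM of Zim1, more than the other gd10.5 libraries, and KO gd16.5 replicate 2, at 22111 CPM of the first, holds 28.0 CPM of Nnat.

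The stage changes reached further imprinted genes, of which 30 were listed beside the 43, and 26 of the 30 could be tested in the stage comparisons. These 30 were not divided by parent, so the paternal and maternal comparison above does not extend to them. From gd10.5 to gd14.5 in WT 6 rose and 3 fell by over 2-fold, beside the 10.7% and 11.6% of all genes given above, and in KO 6 rose and 3 fell, beside 8.53% and 10.2%. Dio3, the deiodinase that inactivates thyroid hormone and the far end of the chromosome 12 cluster, fell most, from 132 to 163 CPM in WT on gd10.5 to 8.84 to 22.8 on gd14.5 and 0.372 to 1.17 on gd16.5 (log2 -3.36 and then -4.24, edgeR adjusted p = 1.92e-06 and 6.48e-05). Dhcr7, an enzyme of cholesterol synthesis, fell from 56.5 to 76.8 CPM to 10.45 to 12.1 (-2.53, adjusted p = 1.67e-07), and Atp10a, a lipid flippase, fell by 1.04 on the log2 scale (adjusted p = 1.25e-05). The largest rises were those of Slc22a3, an organic cation transporter, from 10.3 to 24.3 CPM to 59.1 to 71.3 (2.05, adjusted p = 0.000102), Th, tyrosine hydroxylase, which stayed at or under 2.02 CPM (1.88, adjusted p = 0.0001), and Tfpi2, a protease inhibitor, from 166 to 432 CPM to 840 to 1205 (1.87, adjusted p = 0.0001). None of the 30 was called between KO and WT in edgeR, where 6 on gd16.5 and 5 on gd19.5 had an unadjusted p under 0.05, beside 11.1% and 13.5% of all genes, and none at the earlier stages.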

How the data were processed

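Poly(A) RNA of 24 MFI samples was sequenced as paired-end reads from a stranded kit. Per the labels and the submitters' processing notes, the authors trimmed reads with Trim Galore 0.6.4, aligned them with STAR 2.7.3a to GRCm38 and counted them with featureCounts (Subread 2.0.0), and deposited whole-number read counts per gene, not normalized. Default settings do not use strand, so reads of a gene and of a gene on its other strand cannot be told apart. WT and KO replicates were numbered 1 to 3 by the sample descriptions and the columns, while the sample titles number the KO replicates 3 to 5.

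From these counts, genes with low counts were removed with filterByExpr (minimum 10, total 15), libraries were scaled by TMM, and edgeR 4.0.16 (R 4.3.3) quasi-likelihood tests with Benjamini-Hochberg adjustment over all genes tested compared KO with WT within each stage (6 libraries a fit), neighbouring stages within each genotype (12 libraries) and the interaction (24 libraries). A call needs an adjusted p under 0.05 and over 2-fold. CPM use TMM-scaled library sizes, and RPKM divide them by exon length in kilobases. DESeq2 1.42.0 and limma 3.58.1 were alternatives, beside other scalings, filters and covariates, the replicate block and leaving out each library. In simulated data, 92.5% (KO against WT, gd16.5), 91% (WT, gd14.5 against gd10.5) and 87% (the same step in KO) of 200 genes changed by 2 on the log2 scale were recovered, with 19, 3 and 4 false calls, among 17071, 18523 and 18467 genes. Smaller changes were not simulated, so these shares do not apply to changes under 2-fold. Figures were drawn with matplotlib 3.10.9.

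The members and gene lists were chosen with earlier results of these data known, and the parental classes come from general knowledge. Values in every library are given for up to 4 called genes with the largest rise and 4 with the largest fall per step whose groups did not overlap, and for 11 growth regulators. Other genes were named for their cluster or their markers after their values were seen. Total counts were 20975717 to 37383108 per library, and the lowest count of a member in a library was 7 (Tspan32). Each library differed from its fellow replicates by more than sampling noise.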

Additional observations from a re-analysis of the deposited data

Results flagged for a closer look

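For 2 genes every KO library lay on one side of every WT library at one stage and on the other side at another. Mest differed between KO and WT by a log2 fold change of 0.25 at gd10.5 and -0.27 at gd16.5. The test of whether the difference changed with stage gave an unadjusted p of 0.00932 in edgeR and an adjusted p of 0.598 over all genes, so it did not pass. Dlk1 differed by 0.55 at gd10.5 and -0.36 at gd16.5, with an unadjusted p of 0.0234 and an adjusted p of 0.662 in the same test. The KO libraries of both stages included libraries with yolk sac markers (all 3 at gd10.5, replicates 1 and 2 at gd16.5). WT replicate 1 of each of these stages had them too. With these markers as a covariate, none of the main gene list passed an adjusted p of 0.05 in edgeR between KO and WT at either stage. The test of change with stage was not fitted with this covariate, so the part of this tissue in that change was not tested.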

How the results depend on the processing

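Of 763 alternative values for 37 changes of single named genes, none reversed and 51 fell below a threshold, in 16 of the 37. Without the fold limit, the numbers of genes called rose to 32, 10 and 5 in the successive WT steps and to 24 and 8 in the first and second KO steps. A fit of all 24 libraries called 1 gene from gd16.5 to gd19.5 in WT and 1 in KO, and the same KO step gave 1 without an expression filter, 1 with DESeq2 and 2 without the libraries with yolk sac markers. The yolk sac covariate, leaving out those libraries and scaling by library size only were chosen after seeing the data. With the covariate, the first KO step kept 5 calls and a paternal minus maternal median of 0.47 (0.73 without it), and the second kept 0. All 3 KO gd10.5 libraries had those markers, so stage and markers cannot be told apart there, and leaving them out could not be fitted. With only the genes imprinted in many tissues, the difference of medians in the second KO step was 0.036 (0.32 with all).

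Leaving out 1 library at a time gave 15 to 16, 3 to 4 and 1 to 2 calls in the WT steps, 10 to 16, 1 to 5 and 0 to 1 in the KO steps, and 0 to 0 between KO and WT and for the interaction. The paternal minus maternal median ranged from 0.83 to 0.91, 0.10 to 0.18 and -0.17 to -0.09 in the WT steps and from 0.64 to 0.81, 0.23 to 0.35 and -0.19 to -0.04 in the KO steps. Between KO and WT it ranged from -0.13 to 0.23 at gd10.5, -0.09 to 0.04 at gd14.5, -0.07 to 0.07 at gd16.5 and 0.01 to 0.14 at gd19.5. The last WT step had 1 call without WT gd19.5 replicate 3, and the last KO step had 1 without KO gd10.5 replicate 2. Scaling by library size only shifted the median of all genes by -0.12, -0.16 and 0.07 in the WT steps and by -0.12, -0.22 and 0.13 in the KO steps.

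Same-numbered WT and KO libraries correlated in their deviations from the group means by -0.46 to 0.41, so that not every pair was over 0.1, and the titles number the KO libraries otherwise, so the fit without the block was kept. As a hint from the data, 14 of 24 libraries correlated best with their own number. With the replicate block the calls were 16, 3 and 2 in the WT steps, 13, 2 and 0 in the KO steps and 0 between KO and WT.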
